A study of Mus musculus with 2 samples.

Results

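The 6 genes described here, listed together as olfactory axon adhesion genes, code for cell surface proteins. These are the adhesion molecule genes Ncam1, Ncam2, Kirrel, Kirrel2 and Kirrel3, and the growth factor receptor gene Igf1r. They were taken by name from a list and located in GENCODE mouse release 21 on GRCm38, where all 6 were found among 21755 protein-coding genes on chromosomes 1 to 19 and X. For each, the chromatin boundaries on either side of the transcription start site (TSS) and along the gene were read from the authors' deposited list of 8058 boundaries. A boundary is a 5 kb interval that separates neighbouring contact domains, stretches of chromatin whose parts touch each other more than they touch what lies beyond.

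The boundaries come from in situ Hi-C on adult mouse olfactory sensory neurons (OSNs) that carried the OMP-GFP reporter, driven from the gene of olfactory marker protein, a product of mature OSNs, and were isolated by cell sorting from olfactory epithelium. The label gives the strain as 129P2/OlaHsd, the sex as mixed, and no treatment. Both biological replicates belonged to 1 group (3000000 and 1500000 cells, fixed in 1% formaldehyde and cut with DpnII), and the authors called boundaries on their combined map. Every value below therefore belongs to 1 pooled map, with no spread between replicates and no test between groups, and contact depth is unknown here. Each boundary carries the authors' strength score, which has no stated unit and serves here only to order boundaries within the list. Scores up to 0.5 are classed Weak and higher ones Strong, and the median over the list was 0.509. The boundary list holds no expression values, so the labelled cell type was not checked against marker genes.

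NCAM proteins are immunoglobulin superfamily molecules that bind their own kind on neighbouring membranes. NCAM1 is the main carrier of polysialic acid on neurons, and NCAM2, also called OCAM, is found on the axons of a subset of olfactory neurons. Kirrel proteins, the relatives of nephrin, also bind their own kind, and OSNs with different odorant receptors carry different amounts of Kirrel2 and Kirrel3, which sort axons as they converge on glomeruli. Kirrel itself, also called NEPH1, is best known from the slit diaphragm of the kidney. Igf1r codes for the receptor tyrosine kinase that binds insulin-like growth factors, and signalling through it shapes where olfactory axons enter the bulb.

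A boundary lay close to the TSS of most of these genes, and usually on the upstream side. Distances are counted between the 5 kb bins that hold the boundary and the TSS. The nearest boundary was 5 kb from the TSS of Ncam1 and of Igf1r, 10 kb from Ncam2, 20 kb from Kirrel3, 30 kb from Kirrel and 165 kb from Kirrel2. Within 20 kb this makes 4 of 6 genes, where 21.2% of all coding genes had a boundary that near. The count was the same from any annotated transcript start (26.9% of coding genes). It was 3 of 6 within 10 kb (12.8%) and 5 of 6 within 50 kb (44.9%). The median distance of the 6 was 15 kb, against 60 kb over all coding genes (interquartile range 25 to 105 kb). Kirrel3 stood at the limit of the 20 kb window and Kirrel just outside it. Genes and windows were chosen with earlier results of these data known.

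The boundary within 20 kb was upstream of the TSS for Ncam1, Ncam2 and Igf1r, a side on which 13.3% of all coding genes had one. It was downstream, inside the gene, for Kirrel3, where the share over coding genes was 11.1%. Of the 4 nearest boundaries, those of Ncam2, Igf1r and Kirrel3 were Strong, and 13.7% of coding genes had a Strong boundary within 20 kb. Those of Ncam2 and Igf1r were also in the top 25% of strengths, a class that 7.04% of coding genes had within 20 kb. Among the 2489 coding genes of 100 kb or more, to which Ncam1, Ncam2, Kirrel3 and Igf1r belong, the TSS was within 20 kb of a boundary in 19.8% and of a Strong one in 11.2%.

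**Figure D1:**
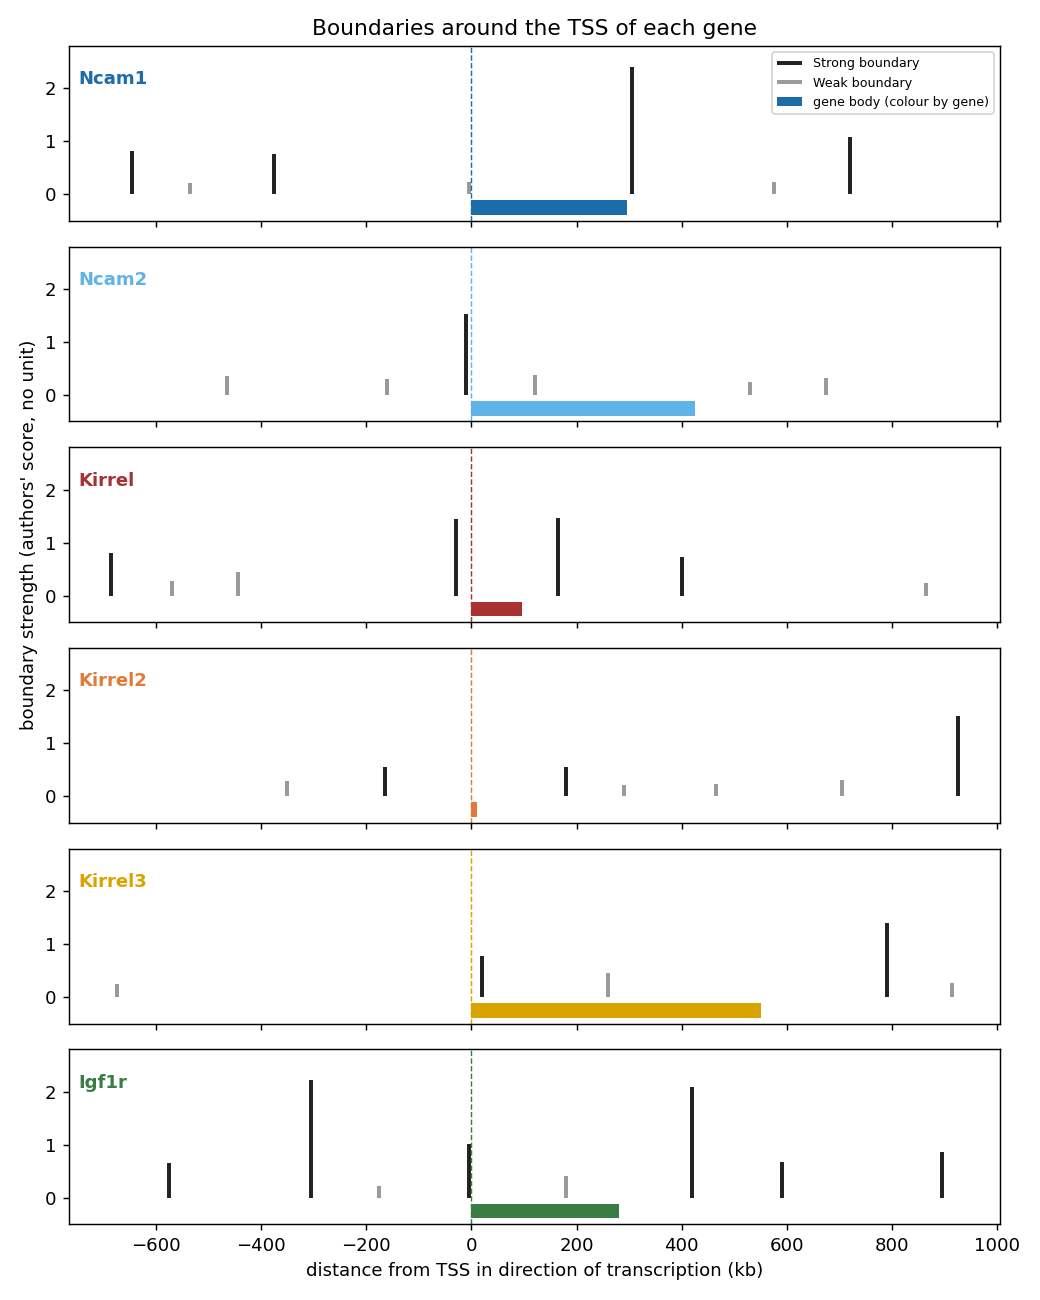
Boundaries around each TSS, with the distance from the TSS in kb in the direction of transcription on the x axis and the authors' strength score on the y axis. Dark lines are Strong and light lines Weak boundaries, and the coloured bar is the gene body. Ncam1, Ncam2 and Igf1r have a boundary at most 10 kb upstream of the TSS, Kirrel3 has one 20 kb into the gene, and Kirrel2 has none nearer than 165 kb.

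Ncam1 filled a domain of its own. The gene lies on the minus strand of chromosome 9 from 49502136 to 49798925 and is 297 kb long, longer than 97.3% of coding genes. The upstream boundary at 49800001 to 49805000 was Weak, with a strength of 0.239 and rank 7138 of 8058, and its edge was 1.08 kb from the TSS. The downstream boundary at 49490001 to 49495000 was Strong, with a strength of 2.39 and rank 109, and its edge lay 7.14 kb beyond the 3′ end of the gene. The whole gene thus sat between them, in a domain of 310 kb in which no other coding TSS lay. The Strong boundary was 5 kb from the TSS of the neighbouring gene Ttc12. Further upstream the next boundary, 375 kb from the TSS, was Strong (0.767).

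Ncam2 had the opposite order of strengths. It lies on the plus strand of chromosome 16 from 81200697 to 81626828 and is 426 kb long. Its upstream boundary at 81190001 to 81195000 was Strong, with a strength of 1.53 and rank 709, and its edge was 5.7 kb from the TSS. The downstream boundary lay inside the gene at 81320001 to 81325000 and was Weak (0.369, rank 5179). Beyond the 3′ end, a Weak boundary (0.249) lay 103 kb away at 81730001 to 81735000. So Ncam1 had its strong boundary near the 3′ end and a faint one at the TSS, and Ncam2 a strong one near the TSS and faint ones inside the gene and past the 3′ end.

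The boundary inside Ncam2 fell in intron 1 of 232 kb. In the transcript with the longest coding sequence among the principal ones (16 exons), exon 1 stood before that boundary and the other 15 exons after it. Only 2.52% of the 2181 coding bases lay on the TSS side. The domain around the TSS was 130 kb long, and 8.21% of the 8038 stretches between neighbouring boundaries were that short or shorter. It held 28.0% of the gene. In the 2 Mb around the TSS, Ncam2 was the sole coding TSS, the GC content was 36.2%, and the boundary at Ncam2 was the 1 Strong one among 7.

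Kirrel stood between a pair of Strong boundaries of nearly the same strength. The gene lies on the minus strand of chromosome 3 from 87078593 to 87174747 (96.2 kb). The upstream boundary at 87200001 to 87205000 had a strength of 1.45 and rank 830, and its edge was 25.3 kb from the TSS. The downstream boundary at 87005001 to 87010000 had a strength of 1.46 and rank 802, and lay 68.6 kb beyond the 3′ end. The domain between them was 195 kb long and held the whole gene and no other coding TSS. The downstream boundary was 10 kb from the TSS of Cd1d1, a lipid antigen presenting gene.

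Kirrel2 was unlike the others in length, distance and neighbours. It is a short gene of 10.2 kb on the minus strand of chromosome 7 from 30447534 to 30457690. Its flanking boundaries were 165 kb upstream (0.554, rank 3727, at 30620001 to 30625000) and 180 kb downstream (0.548, rank 3771, at 30275001 to 30280000), both just over the limit of the Strong class. A distance of 165 kb or less to the nearest boundary was found for 88.5% of coding genes. The upstream boundary overlapped an exon of Cox6b1, a subunit gene of cytochrome c oxidase, and the downstream one an exon of Wdr62.

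The domain of Kirrel2, 345 kb long, held 25 other coding TSSs. Among them was Nphs1, which codes for nephrin, the partner of Kirrel proteins in the kidney, on the opposite strand with its TSS 0.625 kb from that of Kirrel2. Others were Aplp1, an amyloid precursor-like protein gene, Psenen, a subunit gene of gamma-secretase, Kmt2b, a histone methyltransferase gene, and the immune adaptor genes Tyrobp and Hcst. The 5 other genes were each the only coding TSS of their domain, as were 9.55% of the 20851 coding genes whose TSS lay between boundaries. Among such genes of 100 kb or more the share was 39.8%, and Ncam1, Ncam2, Kirrel3 and Igf1r were 4 of 4. These 4 measured 281 to 551 kb, and genes matched to them in length were not compared.

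Kirrel3 had a boundary just inside the gene and a long stretch without any before it. The gene lies on the plus strand of chromosome 9 from 34485894 to 35036716, 551 kb in all, and is longer than 99.1% of coding genes. The nearest boundary, at 34505001 to 34510000, was Strong (0.779, rank 2585) and lay 19.1 kb downstream of the TSS. Upstream the next boundary, Weak (0.255, rank 6805), was 675 kb away. The domain around the TSS measured 695 kb, equal to or longer than 95.3% of all stretches between boundaries, yet it held only 3.47% of the gene.

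A further Weak boundary (0.455, rank 4398) lay in Kirrel3 at 34745001 to 34750000, 260 kb from the TSS. Both fell in intron 2 of a transcript with 17 exons, so exons 1 and 2, with 2.39% of the coding bases, stood on one side and the other 15 exons on the other. Beyond the 3′ end, a Strong boundary (1.39, rank 917) lay 238 kb away at 35275001 to 35280000 over an exon of Rpusd4. Ncam1 and Kirrel3 share chromosome 9 with their TSSs 15.3 Mb apart.

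Igf1r, the receptor gene, had a Strong boundary at its TSS. It lies on the plus strand of chromosome 7 from 67952827 to 68233668 (281 kb). The upstream boundary at 67945001 to 67950000 had a strength of 1.02 and rank 1733, and its edge was 2.83 kb from the TSS. A Weak boundary (0.416, rank 4735) lay inside the gene at 68130001 to 68135000, in intron 2 of a transcript with 21 exons, leaving 15.6% of the coding bases before it. Beyond the 3′ end a Strong boundary (2.09, rank 231) lay 136 kb away at 68370001 to 68375000. The domain around the TSS measured 185 kb and held 63.1% of the gene. Of the 9 boundaries within 1 Mb of the TSS, 7 were Strong, more than at any other of the 6 genes. The strongest of them (2.23, rank 164) lay over the TSS bin of Lrrc28.

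**Figure D2:**
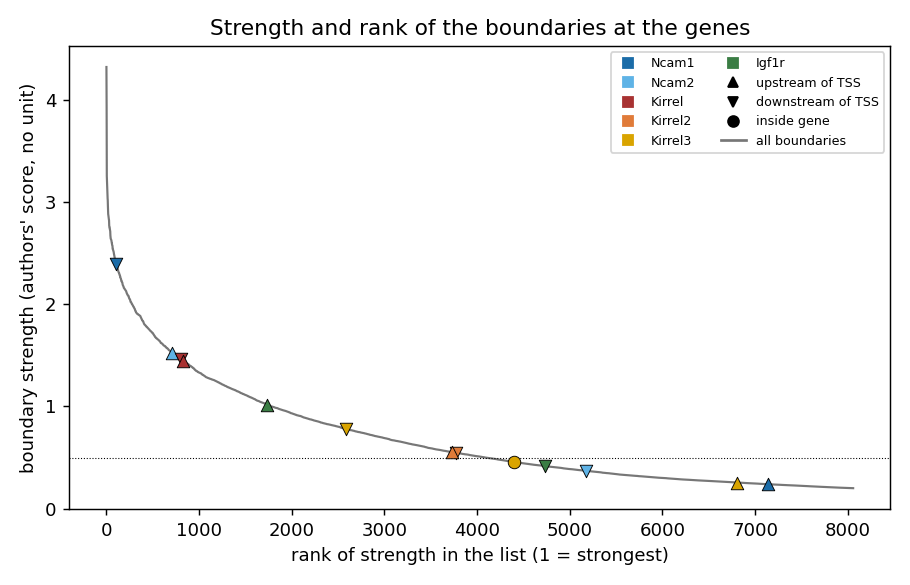
Strength score against rank in the list of 8058 boundaries (grey line), with the 13 boundaries that flank a TSS or lie inside one of the 6 genes drawn as coloured marks, by their side of the TSS. The dotted line is the limit between Weak and Strong at 0.5. The marks run from rank 109 (downstream of Ncam1, 2.39) to rank 7138 (upstream of Ncam1, 0.239).

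The 13 boundaries that flanked a TSS or lay inside one of the genes comprised 8 Strong and 5 Weak ones, where 50.8% of the whole list was Strong. Their median strength was 0.554, and that of the list 0.509. The boundary nearest the TSS had a median strength of 0.668 over all coding genes. The median of the 13 is not a like measure, as the 13 also include boundaries that are not the nearest. The nearest boundary was above 0.668 at Ncam2 (1.53), Kirrel (1.45), Igf1r (1.02) and Kirrel3 (0.779). It was below 0.668 at Kirrel2 (0.554) and Ncam1 (0.239). The 4 boundaries inside genes, at Ncam2, Kirrel3 and Igf1r, all lay in introns, and 3 of the 4 were Weak. In the whole list 3966 of 8058 boundaries were Weak. How often boundaries inside other coding genes lie in introns or are Weak was not counted. A boundary overlapped 3 of the 6 genes, where the share was 15.9% over all coding genes and 49.5% over those of 100 kb or more. Of the 4 long genes, 3 had such a boundary and Ncam1 had none. A Strong boundary inside was found in Kirrel3 alone, against 9.89% of all coding genes and 28.3% of those of 100 kb or more. Midpoints of boundaries fell inside the same 3 genes (12.9% of coding genes).

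**Figure D3:**
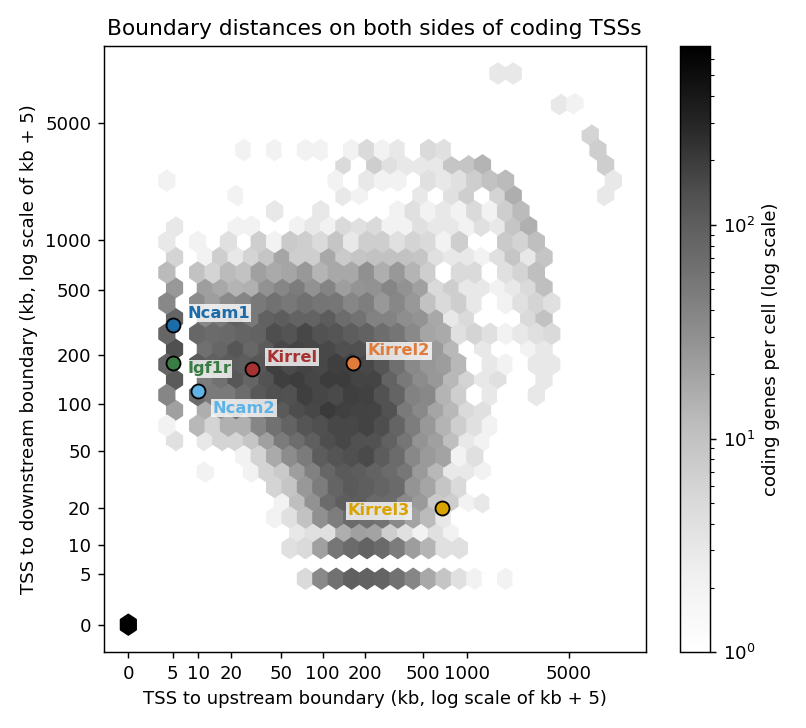
Distance from the TSS to the upstream boundary (x axis) and to the downstream boundary (y axis), in kb on a log scale of kb plus 5, with all coding genes in grey and the 6 genes as coloured points. Ncam1, Ncam2 and Igf1r sit on the left with upstream distances of 5 to 10 kb, Kirrel3 sits low with a downstream distance of 20 kb, and Kirrel2 lies in the dense middle.

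Domain lengths spread widely among the 6 genes, from 130 kb at Ncam2 through 185 kb at Igf1r, 195 kb at Kirrel, 310 kb at Ncam1 and 345 kb at Kirrel2 to 695 kb at Kirrel3. Their median of 252.5 kb was near the 275 kb found over coding genes (interquartile range 195 to 400 kb). At the 3′ end, Ncam1 alone had a boundary within 20 kb (22.2% of coding genes), and the other genes had theirs at 70 to 240 kb. The whole gene fitted inside its domain for Ncam1, Kirrel and Kirrel2, as it did for 86.8% of coding genes and 52.1% of those of 100 kb or more.

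**Figure D4:**
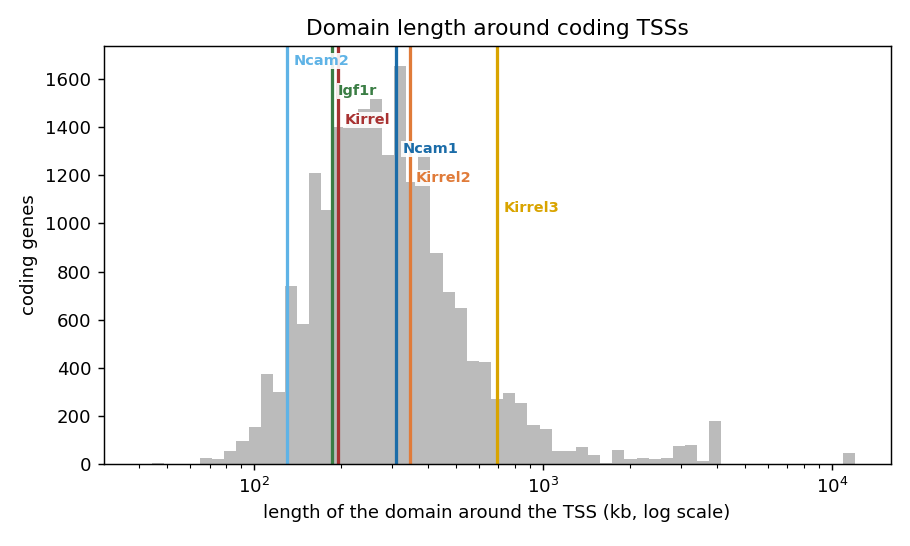
Length of the domain around the TSS in kb (log scale), as a histogram over 20851 coding genes with the 6 genes as coloured lines. Ncam2 (130 kb) lies in the lower tail, Kirrel3 (695 kb) in the upper tail, and the other genes between 185 and 345 kb.

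The surroundings of the genes differed in gene content more than in boundary density. Within 1 Mb on either side of the TSS there were 5 boundaries at Kirrel3, 7 at Ncam2, 8 at Ncam1 and at Kirrel2, and 9 at Kirrel and at Igf1r, where the median for coding genes was 7. Coding TSSs in the same windows numbered 1 at Ncam2, 9 at Kirrel3 and at Igf1r, 29 at Ncam1, 30 at Kirrel and 83 at Kirrel2. In 25 kb around the 13 boundaries, GC content ran from 35.2 to 48.6% (median 45.2%), and the median over all boundaries was 42.4%. The soft-masked (repeat) share had a median of 24.5% against 32.7%, and the sites cut by DpnII had a median of 2.36 against 2.52 per kb. The part of base composition in these boundary calls was not tested.

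CTCF is the zinc finger protein that halts loop-extruding cohesin, and the direction of its sites matters for which way a loop forms. Exact matches to the CTCF core consensus on either strand lay within 20 kb of 5 of the 13 boundaries, where 21.9% of all boundaries had one. Within 10 kb the count was 4 (15% of all boundaries) and within 50 kb it was 6 (33.4%). By class this was 3 of 8 Strong boundaries (30.3% of all Strong ones) and 2 of 5 Weak ones (13.2% of all Weak ones). The matches are printed because they show which boundary at each gene carries one and which way it reads. Each is written 5′ to 3′ on its own strand with the core in capitals and 8 bases on either side, from GRCm38.p6.
Ncam1, past the 3′ end, chr9:49494112-49494141, plus strand: taacatagCCACTAGATGGCAGtcccagtc
Ncam2, intron 1, chr16:81330717-81330746, plus strand: gccggctgCCACCAGGTGGCACcaaataca
Kirrel2, upstream boundary, chr7:30613747-30613776, minus strand: ttaagcgaCCACCAGAGGGCGCtgtccgag
Kirrel2, upstream boundary, chr7:30634819-30634848, plus strand: ccattgtcCCAGTAGGTGGCGCcactgggg
Kirrel3, at the TSS, chr9:34485800-34485829, minus strand: gtccctcaCCAGCAGGTGGCACcctctcca
Igf1r, intron 2, chr7:68132383-68132412, plus strand: agttcaagCCACCAGAGGGCAGagggagtt

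The matches at Ncam1 and Igf1r lay in the 5 kb boundary bin itself. At the upstream boundary of Kirrel2 a match lay on either side, and both pointed away from the boundary. The match in Ncam2 also pointed away, and so did that of Kirrel3. The upstream boundaries of Ncam1, Ncam2, Kirrel and Igf1r had no exact match within 20 kb. With 1 mismatch allowed, the boundaries of Ncam2, Kirrel and Igf1r had at least 1 match and that of Ncam1 had 0. At that setting 76.3% of all boundaries had a match. No match says only that these letters are not in the window.

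The match at Kirrel3 stood closest to a TSS. It ended 73 bases upstream of the TSS on the minus strand, pointing away from the gene, and 20 kb by bins from the boundary in intron 2. A core match lay within 100 bases of the TSS in 56 of 21755 coding genes (0.257%). The median distance from a coding TSS to the nearest match was 91.7 kb, and it was 25.6 kb at Kirrel2, 84.6 kb at Kirrel, 130 kb at Ncam2, 164 kb at Igf1r and 305 kb at Ncam1. Beyond the 3′ ends, the Strong boundaries past Kirrel3 (chr9:35282617-35282646) and past Igf1r (chr7:68374184-68374213) also had plus-strand matches. The first boundaries past the 3′ ends of Ncam2, Kirrel and Kirrel2 had none within 20 kb. Of all Strong boundaries, 30.3% had a match on either strand within 20 kb.
Kirrel3, past the 3′ end: tgatactgCCACCAGATGGCAGtagtgccc
Igf1r, past the 3′ end: aagaattgCCACTAGATGGCGCtgctgcac

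RefSeq promoter windows (250 bases before to 50 after the start, GRCm38.p6) were given for 4 of the 6 genes, and Ncam1 and Kirrel3 are not among them. GC content of the window was 76.0% for Igf1r and 75.7% for Ncam2, the genes with a Strong boundary within 10 kb upstream, then 69.3% for Kirrel and 59.7% for Kirrel2. Whether window GC goes with a near boundary was not tested. The median over 32817 windows was 52.7%. CpG dinucleotides numbered 48, 41, 28 and 8 in the same order, against a median of 7. The GC box GGGCGG, counted on both strands, was found 2 times each in Igf1r and Ncam2 and 1 time each in Kirrel and Kirrel2, and 35.6% of all windows held it. The TATA box TATAAA (13.6% of windows), the palindrome bound by Ebf factors (TCCC, any 2 bases, GGGA; 0.905%) and the homeodomain core TAATTA (5.3%), each sought on both strands, were in none of the 4 windows. A match is a description of letters, not a bound site.

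The 250 bases before the RefSeq start of Ncam2 and Igf1r are shown because a Strong boundary lies within 10 kb of each, with GC boxes on either strand in capitals. In Ncam2 (chr16:81200447-81200696, plus strand) both GC boxes read on the minus strand. In Igf1r (chr7:67952007-67952256, plus strand) both read on the plus strand.
Ncam2: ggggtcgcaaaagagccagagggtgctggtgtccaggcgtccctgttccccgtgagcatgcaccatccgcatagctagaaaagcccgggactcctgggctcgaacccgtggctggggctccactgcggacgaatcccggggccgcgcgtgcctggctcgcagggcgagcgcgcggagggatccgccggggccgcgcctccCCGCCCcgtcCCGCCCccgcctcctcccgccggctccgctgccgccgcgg
Igf1r: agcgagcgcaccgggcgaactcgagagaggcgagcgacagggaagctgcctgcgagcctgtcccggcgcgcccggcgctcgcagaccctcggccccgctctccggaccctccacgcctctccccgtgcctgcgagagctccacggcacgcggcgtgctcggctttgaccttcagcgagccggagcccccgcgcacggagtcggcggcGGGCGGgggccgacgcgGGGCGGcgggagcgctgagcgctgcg

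Partners and relatives of the 6 genes, 59 in all in 4 lists, had one at 20 kb or less from the TSS in 20 cases (33.9%, where all coding genes had 21.2%), and a Strong one within 20 kb in 8. For Strong boundaries the share was 13.6%, near the 13.7% of all coding genes. Their median distance was 45 kb. Among 26 immunoglobulin superfamily adhesion genes of axons the count was 9, led by Dscaml1 (1.85, 15 kb upstream), Nfasc (1.31, 10 kb upstream), which codes for neurofascin, and Cadm1 (0.958, 10 kb upstream). These are long genes too: 18 of the 26 measured 100 kb or more, and 15 of those 18 had a boundary inside. The share over all coding genes of 100 kb or more was 49.5%. Lengths in this list reached 2197 kb, and genes matched in length were not compared. Cntn4, a contactin of olfactory axons also called BIG-2, had its nearest boundary 370 kb away, the farthest of the lists (chosen after its value was seen).

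Of 6 genes of polysialylation and signalling by NCAM, 3 had a boundary within 20 kb, where the share over all coding genes was 21.2%. These were Sptbn1, a spectrin gene (0.557, 5 kb upstream), the polysialyltransferase gene St8sia2 (0.318, 10 kb upstream) and the kinase gene Fyn (0.312, 5 kb downstream). The other polysialyltransferase gene, St8sia4, had its nearest boundary at 135 kb (named after its value was seen). Of 8 Kirrel partners, 3 had one, each Weak and in the bin of the TSS: the adaptor gene Nck2 (0.499), the scaffold gene Cask (0.371) and the tight junction gene Tjp1 (0.324). Of 19 genes of the insulin-like growth factor axis, 5 had one (26.3%, near the 21.2% of all coding genes), led by Igfbp5 (2.18, 15 kb downstream), a binding protein gene, Irs2 (1.97, 10 kb upstream), an adaptor of the receptor, and Igfbp1 (0.823, 20 kb upstream).

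**Figure D5:**
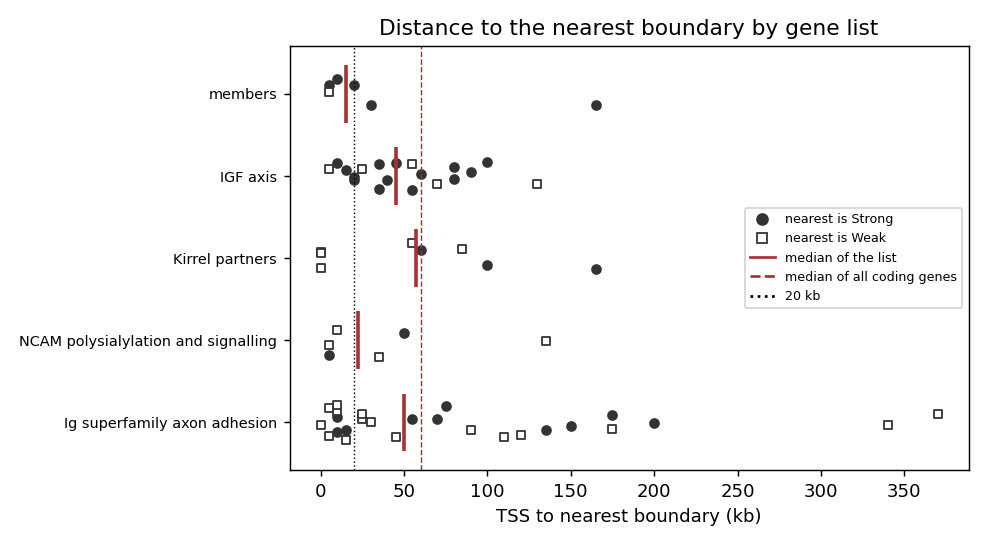
Distance from the TSS to the nearest boundary in kb for each gene of the 4 lists and the 6 genes (members), with filled circles where that boundary is Strong and open squares where it is Weak. Red bars are list medians, the dashed line is the median of all coding genes (60 kb) and the dotted line marks 20 kb. The medians run from 15 kb for the 6 genes to 57.5 kb for the Kirrel partners.

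The coding genes whose arrangement was most like that of each gene were found from 5 percentile ranks over all coding genes (both boundary distances, both strengths and gene length), on this 1 pooled map. For Igf1r these were Cadm1, with a mean difference of 2.14 percentile points, and Schip1 (3.96). For Kirrel3 they were Synpr (2.53) and Ambra1 (5.53), for Kirrel Inpp4a (2.77) and Lrp6 (2.91), and for Ncam2 Col26a1 (3.5). For Ncam1 they were Phlpp1 (4.05) and Adamts18 (4.58), and for Kirrel2 Oxa1l (4.64) and Prkcsh (4.87). Cadm1 had a boundary of 0.958 at 10 kb upstream and of 0.388 at 175 kb downstream, beside 1.02 at 5 kb and 0.416 at 180 kb for Igf1r. Cadm1 was chosen by these values, so their likeness follows from the choice. How near the most similar gene of any coding gene usually comes was not counted.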

How the data were processed

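In situ Hi-C of 2 replicates was pooled by the authors, who called boundaries on the combined GRCm38 matrix, per the series design text. The build also stands in the submitters' processing notes. The caller, its window, the mapper and versions were not given in the sources used here. Boundaries in the authors' deposited list are 5 kb intervals with a class and a strength score from 0.2 to 4.32, whose scale is not stated.

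Gene records came from GENCODE release 21 and sequence from GRCm38.p6. The 5′ end of each gene record served as its TSS. Distances were taken between bin starts, and a domain was the stretch between the starts of flanking boundaries. A boundary was inside a gene where their intervals overlapped. Percentages and percentiles over coding genes are descriptions, not tests. Python 3.11.15, numpy 2.4.6 and pandas 2.3.3 were used, and the distance and overlap functions were tested on simulated data. Alternatives were other windows, Strong or top 25% boundaries, any transcript start, bin midpoints, ranks within chromosomes and 1 mismatch in the CTCF core.

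The 6 genes, the lists and the windows were chosen with earlier results of these data known. Named genes were the members, genes at their boundaries or in their domains, the 2 most similar genes of each (1 is not reported here), and the 3 with the strongest near boundary per list, with exceptions marked.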

Additional observations from a re-analysis of the deposited data

How the results depend on the processing

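Of 13 alternative counts, 8 stayed within 1.5 times the reported one. With the top 25% of strengths, 2 of the 6 genes (Ncam2 and Igf1r) kept a boundary within 20 kb in place of 4 (7.04% of coding genes), and with Strong boundaries 1 in place of 3 had one inside (9.89% of coding genes). With 1 mismatch allowed, 11 of the 13 boundaries had a CTCF match in place of 5 (76.3% of all boundaries at that setting, in place of 21.9%). Of the 59 list genes, 31 had a boundary within 50 kb (52.5%, against 44.9% of coding genes) and 8 a Strong one within 20 kb (13.6%, against 13.7%), in place of 20. Domains limited by Strong boundaries measured 680 kb at Ncam1, 1710 kb at Ncam2, 1375 kb at Kirrel3 and 425 kb at Igf1r. With the top 25% they measured 1345 kb at Ncam1, 3505 kb at Ncam2, 1685 kb at Kirrel2, 2145 kb at Kirrel3 and 425 kb at Igf1r (fewer boundaries leave longer stretches). Kirrel stayed at 195 kb under both, as its flanking boundaries (1.45 and 1.46) are in the top 25%. Ranked within its chromosome, the nearest boundary stood at 91.8% for Ncam1 (88.6% over the list), 8.13% for Ncam2 (8.8%), 9.37% for Kirrel (10.3%), 49.2% for Kirrel2 (46.3%), 35.5% for Kirrel3 (32.1%) and 23.6% for Igf1r (21.5%).

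No paired analysis was possible because boundaries were called once for both replicates of 1 group, and leaving out a replicate was not possible either. Contact depth is unknown here, and the boundary upstream of Ncam1 (0.239) has a score near the lowest in the list (0.2).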
